A study of Rattus norvegicus with 8 samples.

Results

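Leukocyte adhesion molecules were followed in the dentate gyrus (DG) of ovariectomized (OVX) rats after status epilepticus (SE). The members were taken by gene name, as every non-control spot of the arrays whose gene name is Icam1, Icam2, Vcam1, Sele, Selp, Itgb2, Itgal, Itga4 or Itgb1. Earlier results of these data were known when they were chosen. These 9 genes, of 35250 names on the array, are read by 11 probes on 29 spots, of 43379 non-control spots. RNA was compared between 4 rats that received oil (COS) and 4 rats that received estradiol (CES), all of them adult female Sprague-Dawley rats of 150 to 200 g, ovariectomized 1 week before the injections and made seizured with kainic acid. By the sample records, E2 was given as 4 doses of 2 microg at intervals of 24 h, kainic acid as 16 mg/kg, and SE ended after 5 h with pentobarbital. The study's methods give another dose of kainic acid, another drug to end SE, all E2 doses before SE and more than 1 time of collection, and nothing in the data decides between these accounts. The comparison asks how these genes differ after SE between OVX rats with and without E2 replacement. Both groups carry the ovariectomy, the kainic acid and SE, and rats without SE were not analysed here, so nothing below tells what SE itself did to a gene.

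White blood cells leave the blood in steps. Selectins on the vessel wall slow them, integrins on the white blood cell then bind immunoglobulin-type ligands on the endothelium, and the cell stops and crosses between or through the endothelial cells. In the brain the endothelium normally holds low amounts of selectins and of the inducible ligands Icam1 and Vcam1, whereas resting endothelium carries Icam2. Inflammatory signals raise the inducible ones, and kainic acid seizures are a known setting of such signals. Several of the genes are also used outside this pathway, since microglia carry Itgb2 and most cell types carry Itgb1.

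Replicates 1 and 3 of each group were labeled with Cy3 and replicates 2 and 4 with Cy5, and each of 4 arrays on a single slide held a pair of rats of the same group. A level is given below as the log2 of the background-subtracted signal relative to the median valid spot of the same channel, where a spot is valid if its signal is at least 2 times its background. Such levels order the rats for 1 probe and do not order different probes. Between 30690 and 38553 spots were valid in a rat, and no spot was saturated. Of the dentate granule neuron markers, Calb1 and C1ql2 were well above background in all 8 rats and Prox1 in none.

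Detection differed between the members. By the scanner software's mark, Icam1, Vcam1, Itgb2 and Itgb1 were well above background in all 8 rats. Icam2 was marked in all COS rats and in 3 of 4 CES rats, the exception being CES replicate 3. Sele was marked in 4 of 4 COS rats and, among the CES rats, in replicate 2 alone. At least 1 probe of Itgal was so in 3 of 4 COS rats and 1 of 4 CES rats. Itga4 was so in 2 of 4 rats of each group, in every case the rats labeled with Cy5. Selp was well above background in no rat. The members detected per rat numbered 6 to 8 in COS and 4 to 8 in CES, and CES replicate 2 was the CES rat with 8.

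Of the members, 6 had a spot valid in all 8 rats and entered the comparison. Of these 6, 4 were lower in CES than in COS by limma at an adjusted p under 0.05, namely Icam1, Itgb2, Itgb1 and Icam2, and none was higher. Over all 20825 genes tested, 28.6% were called lower and 5.74% higher, or 34.3% in either direction. The same 4 members were those with no overlap between the 4 COS and the 4 CES values, which held in this direction for 19.7% of all genes. The median difference, CES minus COS, was -1.41 over the 6 members and -0.25 over all genes. A normalization by loess within and Aquantile between arrays moved the median of all genes to 0.05 and the calls over all genes to 2999 higher and 1943 lower, against 1195 higher and 5957 lower. The 4 members stayed called lower under that normalization, which called 9.33% of all genes lower.

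**Figure D1:**
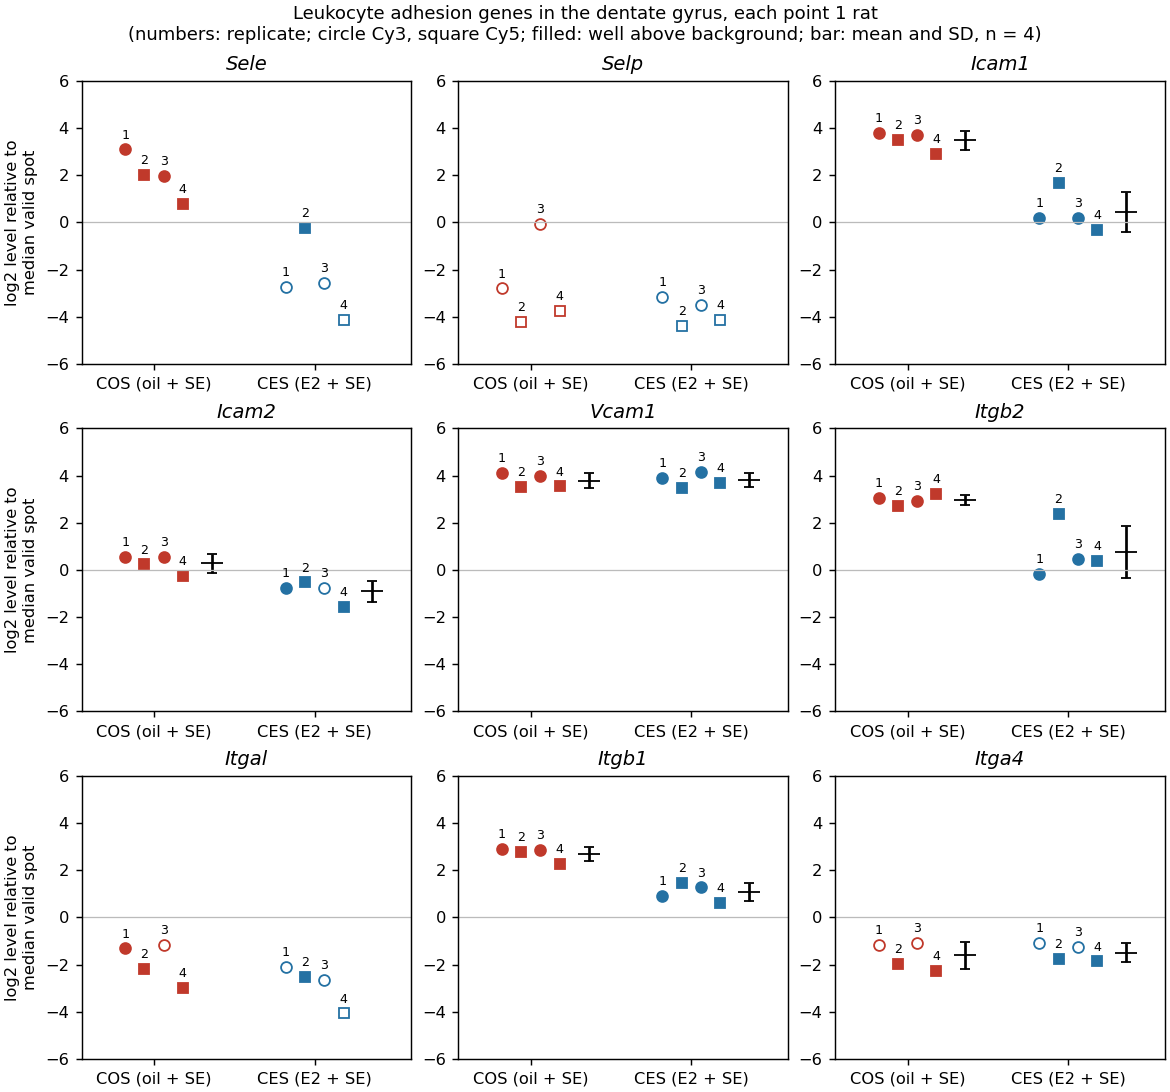
Level of each adhesion gene in each rat, as log2 relative to the median valid spot of the channel, with COS in red and CES in blue, the replicate number above each point, and the mean and SD of 4 rats beside the 6 genes that could be compared. Filled points were well above background. The values of Icam1, Icam2, Itgb2 and Itgb1 do not overlap between the groups, those of Vcam1 and Itga4 lie at the same height, and CES replicate 2 is the CES rat nearest to COS for Sele, Icam1, Itgb2 and Itgb1. For Sele, Selp and Itgal, a spot value below the lowest valid signal of the channel was raised to that signal. Other values of spots that were not valid are drawn as measured.

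The probe sequences below are those of the 4 members called, of Vcam1, which was not, and of Sele, detected mainly in COS, as the scanner files give them, with the first 30 bases of a 60-base probe except for the Itgb1 probe spotted 10 times, which is whole.
Sele: aaagtgtcccaacttctgaattaactcgtt
Icam1: aatatggacgctcacctttagcagctcaac
Icam2: ctcatgggaaatggatagaattcctagtct
Vcam1: acggggacgtgtttcttcatcaggatcttg
Itgb2: cctgtccgttgtattatatgtgagtgtaaa
Itgb1, 10 spots: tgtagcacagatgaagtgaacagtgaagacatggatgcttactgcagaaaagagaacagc
Itgb1, 1 spot: gtgagttacttgatcctgtaactcccaacg
In build rn4 the files place these probes, each over 60 bases, at chr13:79822442-79822501 on the plus strand for Sele, chr8:20051730-20051789 on the plus strand for Icam1, chr2:212277695-212277754 on the minus strand for Vcam1, chr20:11446736-11446795 on the minus strand for Itgb2, and chr19:58611137-58611196 and chr19:58600532-58600591 on the minus strand for Itgb1. The probe of Icam2 lies at chr10:95775052-95775111 on the minus strand, that of Itga4 at chr3:62057840-62057899 on the plus strand and that of Selp at chr13:79922078-79922137 on the plus strand. The 2 probes of Itgal lie on the plus strand of chromosome 1, at chr1:186594579-186597988, a span longer than the probe, and at chr1:186567626-186567685. No annotation of rn4 was used here, so exons and untranslated regions are not assigned.

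Of the selectins, Sele was detected and Selp was not. Sele encodes E-selectin, which activated endothelium makes anew and which lets white blood cells roll on the vessel wall. Its signal was 2850, 2350, 988 and 1290 in COS replicates 1 to 4, over local backgrounds of 43 to 61. In CES replicates 1 to 4 it was 92.2, 572, 79.4 and 66.3, over backgrounds of 40 to 51. On the level scale the lowest COS rat, replicate 4, was at 0.80 and the highest CES rat, replicate 2, at -0.23, and of the CES rats replicate 2 alone reached 2 times its background. Since Sele had no spot valid in all 8 rats, it entered only a fit without the filter on valid spots, in which 12% of 34643 genes were called lower. There the fitted difference was -4.38 (SE 0.77, limma adjusted p = 0.0149). Since 3 of 4 CES values were not well above background, and that of replicate 4 was at the floor, this is no measured fold, and its size depends on the floor and on signals near background. This call was lost when any COS rat was left out, at adjusted p from 0.0519 to 0.134, with normexp background correction (adjusted p = 0.308) and with the methods' t-test (adjusted p = 0.131). In these refits without the filter no other member was called either, so the loss is not particular to Sele.

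Selp encodes P-selectin, which platelets and endothelial cells store and bring to the surface on activation. Its signal lay between 55.4 and 259 in COS rats and between 36.7 and 60.5 in CES rats. The 259 of COS replicate 3 was not marked as well above background either. No fold is given for Selp, since neither group had a rat with a signal well above background.

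Icam1 had the largest difference of the members that could be compared. It encodes the inducible endothelial and glial ligand of the beta 2 integrins. Its level was 3.79, 3.50, 3.72 and 2.90 in COS replicates 1 to 4 and 0.20, 1.69, 0.20 and -0.30 in CES replicates 1 to 4. The lowest COS rat, replicate 4, stood above the highest CES rat, replicate 2, and the other CES rats lay close together. The means were 3.48 ± 0.41 in COS and 0.45 ± 0.86 in CES (SD, n = 4 each), and the difference was -3.03 (SE 0.39, limma adjusted p = 0.00309), or 8.16-fold. Measured from the all-gene median it was -2.77. Of the 20825 genes, 71 had a lower difference than Icam1. Within the Cy3 rats the difference was -3.55 and within the Cy5 rats -2.51. Without CES replicate 2 it was -3.53, with the SE at 0.19.

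Icam2 encodes a ligand of the same integrins that resting endothelium carries. Its level was 0.56, 0.23, 0.56 and -0.25 in COS replicates 1 to 4 and -0.77, -0.53, -0.75 and -1.56 in CES replicates 1 to 4. The gap between the lowest COS and the highest CES rat was narrow, and replicate 4 was the lowest in each group. The difference was -1.18 (SE 0.23, limma adjusted p = 0.00605), or -0.92 from the all-gene median. This call was lost without COS replicate 3 (adjusted p = 0.0549) and with normexp (difference -0.68, adjusted p = 0.333). In every rat of COS the level of Icam1 exceeded that of Icam2 by 3.15 to 3.27 on the log2 scale, and in CES by 0.95 to 2.22. The absolute size of such a difference depends on the probes, but its shift of -1.85 between the groups does not depend on how the channels were scaled, and no test was made of it.

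Vcam1 encodes the endothelial ligand of the alpha 4 beta 1 integrin, which inflammatory signals can induce. Its level was 4.10, 3.52, 3.99 and 3.54 in COS replicates 1 to 4 and 3.89, 3.47, 4.15 and 3.69 in CES replicates 1 to 4. The groups overlapped over nearly their whole range, and in each group the Cy3 rats were the higher ones. The difference was 0.01 (SE 0.15, 95% interval -0.33 to 0.36, limma adjusted p = 0.957), and 0.27 from the all-gene median. Loess with Aquantile put it at 0.33 (adjusted p = 0.132), and 0.41 (adjusted p = 0.100) was reached with channel medians taken over the spots valid in every rat. The level of Icam1 minus that of Vcam1, which no scaling of the channels can move, was between -0.65 and -0.02 in COS and between -3.99 and -1.78 in CES. These ranges did not overlap, which largely restates that Icam1 was called and Vcam1 was not.

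**Figure D2:**
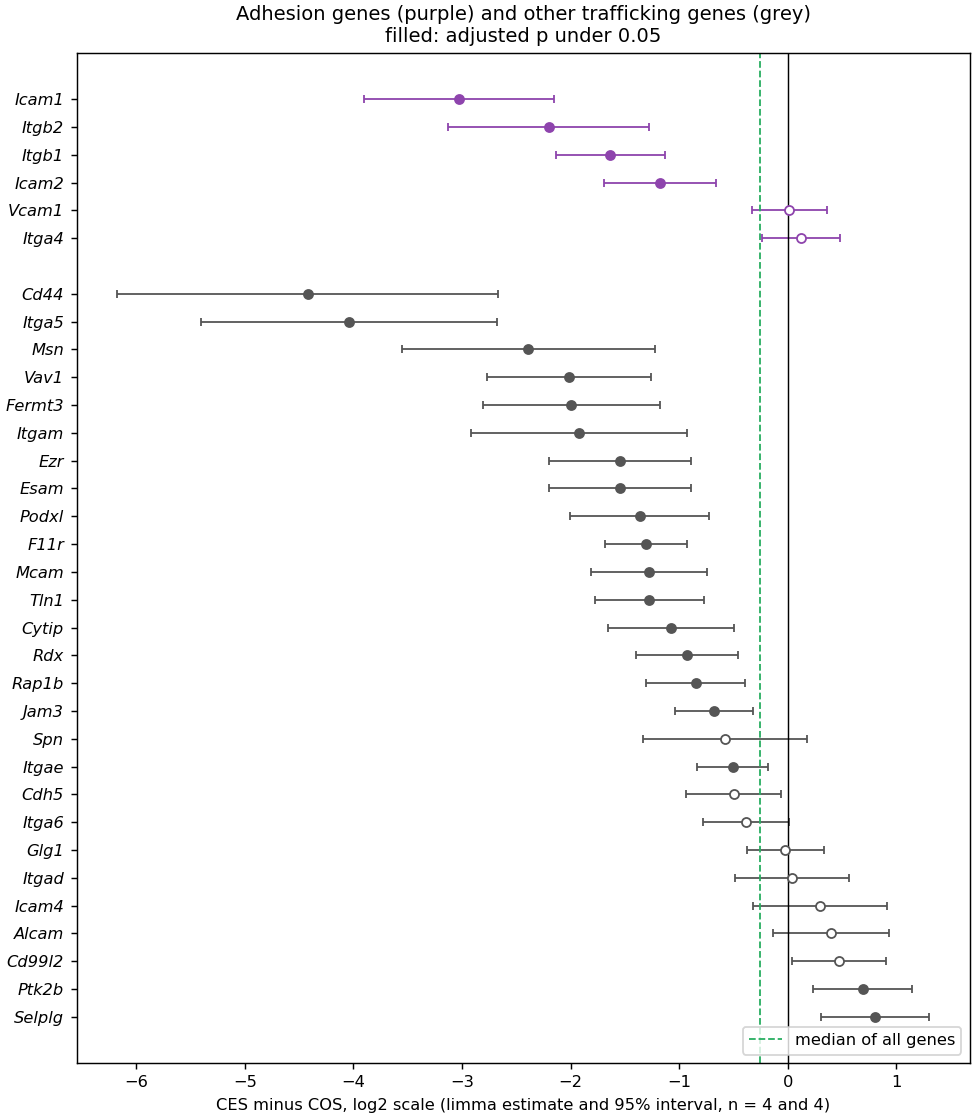
CES minus COS on the log2 scale with the 95% interval of the limma fit (n = 4 and 4), for the 6 adhesion genes that could be compared (purple) and 27 other genes of leukocyte trafficking (grey). Filled points had an adjusted p under 0.05, and the dashed line is the median of all genes, -0.25. Icam1, Itgb2, Itgb1 and Icam2 lie left of this line with their whole intervals, whereas the intervals of Vcam1 and Itga4 include 0.

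The regions before the starts of Icam1 and Vcam1 are shown because Icam1 was called lower and Vcam1 was not called. Both are known to carry sites of the NF-kappa-B family, and the part of such sites in the values was not tested. RefSeq (build GRCr8) gave a window of 300 bases around the start for 5 of the 9 members, Icam1, Vcam1, Sele, Itga4 and Itgb1. The bases of the window before the gene are printed, 5′ to 3′ on the gene's strand, with matches to GGNNNTTCC on either strand in capitals, at chr8:27829595-27829687 (plus strand) and chr2:206742784-206743033 (minus strand).
Icam1: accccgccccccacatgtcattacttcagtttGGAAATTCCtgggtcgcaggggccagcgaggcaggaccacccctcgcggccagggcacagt
Vcam1: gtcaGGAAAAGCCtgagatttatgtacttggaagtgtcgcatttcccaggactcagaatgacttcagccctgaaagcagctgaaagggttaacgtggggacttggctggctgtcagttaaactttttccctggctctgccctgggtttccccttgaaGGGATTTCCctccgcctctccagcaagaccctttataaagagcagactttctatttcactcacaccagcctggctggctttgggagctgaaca
Over the whole window, the pattern matched 2 times in Icam1, 2 times in Vcam1 and not in Sele, Itga4 or Itgb1, and 18.3% of 33469 windows of this length held it. Of these matches, 1 in Icam1 and 2 in Vcam1 lie in the printed part, which is shorter for Icam1. Sites that depart from this 1 pattern are not marked or counted. The AP-1 pattern TGANTCA and the full palindromic estrogen response element, held by 7.33% and 0.0269% of the windows, matched in none of the 5. The patterns were chosen with these windows in view, and a match is a run of letters and not a shown binding site.

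Itgb2 encodes the beta 2 chain that the leukocyte integrins share and that microglia also carry. Its level was 3.05, 2.72, 2.91 and 3.21 in COS replicates 1 to 4 and -0.16, 2.38, 0.48 and 0.38 in CES replicates 1 to 4. The COS rats lay close together, CES replicate 2 was a little below the lowest of them, and the other CES rats were far lower. The means were 2.97 ± 0.21 in COS and 0.77 ± 1.11 in CES (SD, n = 4 each). The difference was -2.20 (SE 0.41, limma adjusted p = 0.00527), or 4.60-fold, and -1.95 from the all-gene median. It was -2.72 (SE 0.21) without CES replicate 2, while without COS replicate 3 the call was lost (adjusted p = 0.0592).

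Itgal encodes the alpha L chain, which pairs with the beta 2 chain to form LFA-1, the receptor of Icam1 and Icam2 on lymphocytes and other white blood cells. The brighter of its probes gave levels of -0.69, -1.50, -0.35 and -2.25 in COS replicates 1 to 4 and -1.41, -1.73, -2.47 and -4.03 in CES replicates 1 to 4. CES replicates 1 and 2 lay within the range of the COS rats and the others below it. The other probe was well above background in no rat. In the fit without the filter the difference, over both probes, was -0.92 (SE 0.35, limma adjusted p = 0.116). It was called without CES replicate 2 (difference -1.29, adjusted p = 0.0107), and in a fit blocked by replicate number (adjusted p = 0.0493).

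Itgb1 encodes the beta 1 chain, which binds Vcam1 together with alpha 4 and binds the matrix around vessels and neurons together with other alpha chains. Its level was 2.91, 2.77, 2.87 and 2.26 in COS replicates 1 to 4 and 0.91, 1.47, 1.27 and 0.62 in CES replicates 1 to 4. The lowest COS rat stood above all CES rats. The means were 2.70 ± 0.30 and 1.07 ± 0.38 (SD, n = 4 each), and the difference was -1.63 (SE 0.22, limma adjusted p = 0.00329), or 3.11-fold. Its 2 probes, fitted alone, gave -1.75 (SE 0.22) for the probe spotted 10 times and -1.48 (SE 0.25) for the single spot. Of the 4 called members, Itgb1 and Icam1 were the ones that kept the call without each rat in turn, with normexp and with loess. This held with the filter on valid spots. Without the filter, both lost the call when any COS rat was left out and with normexp.

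Itga4 encodes the alpha 4 chain, by which lymphocytes and monocytes bind Vcam1. Its level was -1.15, -1.98, -1.07 and -2.25 in COS replicates 1 to 4 and -1.07, -1.78, -1.26 and -1.86 in CES replicates 1 to 4. The Cy3 rats were higher than the Cy5 rats in each group, though the Cy5 rats were the ones well above background, and the groups overlapped. The difference was 0.12 (SE 0.16, 95% interval -0.24 to 0.48, limma adjusted p = 0.594), and 0.38 from the all-gene median. It was called higher with channel medians over the spots valid in every rat (0.52, adjusted p = 0.0413) and in the deposited log2 table (0.47, adjusted p = 0.0469), and it took the opposite sign with normexp (-0.04, adjusted p = 0.985). The level of Itgb1 minus that of Itga4 was between 3.94 and 4.75 in COS and between 1.98 and 3.25 in CES, without overlap. This largely restates that Itgb1 was called and Itga4 was not. Itgb2 minus Icam1, the remaining pair looked at, was between -0.81 and 0.31 in COS and between -0.36 and 0.69 in CES, with overlap. How often other pairs of genes overlap was not counted.

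The arrays hold 10 copies of a probe for Icam1 and of a probe for Itgb1, which show the error of a spot within a rat. Over the 6 copies of the Icam1 probe that the software marked as an outlier in no rat, the SD within a rat was 0.03 to 0.23 on the log2 scale. Over the 9 such copies for Itgb1 it was 0.12 to 0.20. Single copies ran from 2.55 to 4.01 in COS and from -0.34 to 1.89 in CES for Icam1, and from 1.31 to 2.76 in COS and from -0.54 to 0.93 in CES for Itgb1. Among these unmarked copies, none in a CES rat reached the lowest in a COS rat. Among all 10 copies of Icam1, 1 marked copy in CES replicate 2 (2.40) exceeded 1 marked copy in COS replicate 4 (2.38). With the marked copies kept, the difference of Icam1 was -2.99 and that of Itgb1 was -1.66.

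**Figure D3:**
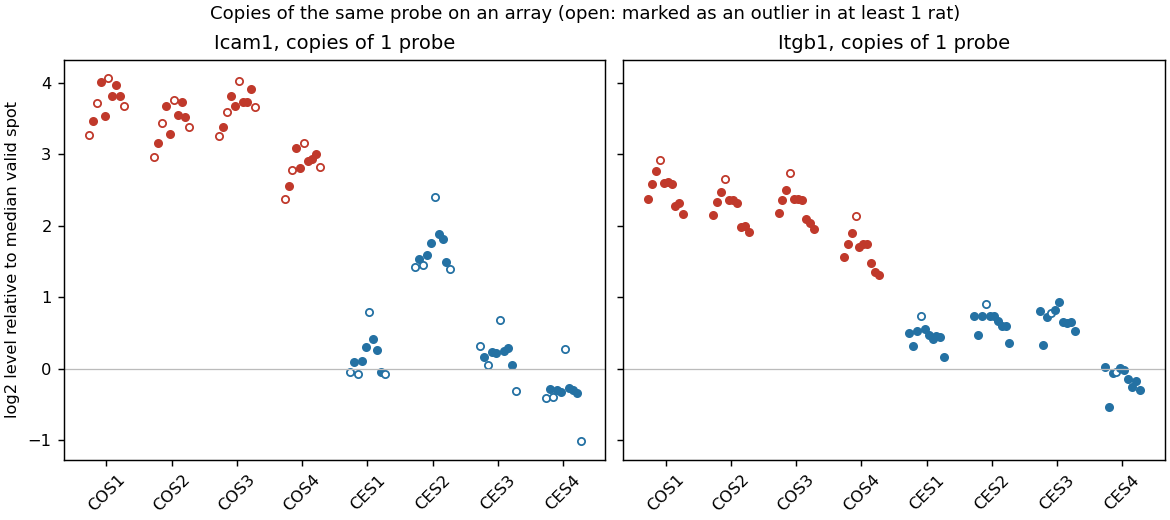
Level of each of the 10 copies of the Icam1 probe (left) and of the Itgb1 probe (right) in each rat, as log2 relative to the median valid spot, with COS in red and CES in blue. Open points are copies marked as an outlier in at least 1 rat and left out of the values above. The copies of a rat lie close together beside the distance between the groups, and CES replicate 2 stands apart from the other CES rats for Icam1.

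CES replicate 2 was the CES rat with the highest level of Icam1, Icam2, Itgb2, Itgb1 and Sele, and the one with the lowest level of Vcam1. The same rat had a Cd44 level of 4.32, against -0.12 to 0.52 in the other CES rats and 5.41 to 5.92 in COS. Its part in the wider spread of CES was not tested, and all 4 members called lower were also called lower without it.

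Of 38 further genes of leukocyte adhesion and passage through the vessel wall, 34 were on the array under their names and 27 could be compared. Of these 27, 17 were called lower and 2 higher, against 28.6% and 5.74% of all genes, and their median difference was -0.93. With loess and Aquantile 9 were called lower and 2 higher, where over all genes the shares were 9.33% and 14.4%. Without COS replicate 3 it was 4 and 0, where the shares over all genes were 5.48% and 1.37%. Receptors and cytoskeletal partners of the adhesion molecules were among those lower. Cd44, a hyaluronan receptor that also binds E-selectin, differed by -4.42 (SE 0.79, limma adjusted p = 0.00467). Itgam, the alpha M chain that pairs with the Itgb2 product on microglia and myeloid cells, differed by -1.92 (SE 0.45, limma adjusted p = 0.0108). Fermt3, the kindlin that activates integrins in blood cells, differed by -1.99 (SE 0.37, limma adjusted p = 0.00495). Msn and Ezr, which anchor adhesion molecules to actin, differed by -2.39 (SE 0.52, limma adjusted p = 0.00865) and -1.55 (SE 0.29, limma adjusted p = 0.00532).

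Some junction and surface molecules of the endothelium were lower too. Esam differed by -1.55 (SE 0.29, limma adjusted p = 0.00529), Podxl, a sialomucin, by -1.37 (SE 0.29, limma adjusted p = 0.00749), and F11r, which encodes JAM-A, by -1.30 (SE 0.17, limma adjusted p = 0.00309). These 8 genes were picked as the called genes with the largest differences among those well above background in all 8 rats. That their 4 COS and 4 CES values did not overlap largely follows from this choice, and it held in this direction for 19.7% of all genes. Itgae and Cytip, also called lower, had overlapping values. The lower call stood with loess for Cd44, Fermt3, Ezr, Esam and F11r. Without COS replicate 3, F11r was the only one of these 8 that was called. Of the other trafficking genes, Itga5, Tln1 and Vav1 were called lower there. Itga5 (-4.04) and Vav1 (-2.01) were not among the 8, since each was well above background in only 2 of 4 CES rats. The 2 genes called higher, named after their values were seen, were Selplg (0.80, limma adjusted p = 0.0212), the ligand of P-selectin on white blood cells, and Ptk2b (0.69, limma adjusted p = 0.0279), a kinase also abundant in neurons, and the groups overlapped for both. With loess the call was kept for Ptk2b and lost for Selplg. Pecam1, Cd34, Madcam1 and Itgb3 were well above background in no rat.

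Markers of the cells that could carry these molecules are given beside the shares over all genes, 28.6% lower and 5.74% higher with a median of -0.25. In bulk tissue, fewer cells of a type and less RNA per cell cannot be told apart. Of 9 endothelial markers that could be compared, 4 were lower (differences of -2.01 for Vwf, -1.31 for Kdr, -1.04 for Flt1 and -0.81 for Tek) and 1 was higher (1.99 for Slco1c1, a transporter of the blood-brain barrier), while Pecam1 was not detected. The summed linear level of the 9, relative to the median valid spot, was 48.3 to 72.0 in COS and 44.6 to 60.6 in CES. Of 8 microglial markers, 2 were lower (-1.85 for Tyrobp and -0.92 for Csf1r) and 1 higher (0.93 for P2ry12), a share of lower calls no larger than that over all genes, with a median of -0.29, and their sum was 105 to 149 in COS and 77.4 to 105.3 in CES. Of 8 neutrophil and monocyte markers only 2 could be compared, Lyz2 and Plac8, which were lower with differences of -2.54 and -2.18, and their sum was 64.0 to 119 in COS and 8.01 to 28.9 in CES. S100a8 and S100a9 were marked as detected in 3 of 4 COS rats and 1 of 4 CES rats, and Mpo, Elane and Ccr2 in none. Csf3r went the other way, marked in 1 of 4 COS rats and 2 of 4 CES rats. Of 11 lymphocyte markers 3 could be compared and Lck was lower (-0.52), and Cd4, Cd8a and Cd79a were detected in no rat.

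Of 3 platelet markers compared, Pf4 was lower (-1.20), and Ppbp was not detected. Of 5 mural markers, 3 were lower (Pdgfrb, Kcnj8, Cspg4) and Rgs5 was higher. Neither of 2 red blood cell markers and none of 5 choroid plexus markers was called. Of 6 meningeal fibroblast markers Col1a2 was lower and Dcn higher, of 5 astrocyte markers Aldh1l1 and Gja1 were higher, of 5 oligodendrocyte markers none was called, and of 3 granule neuron markers Dsp and C1ql2 were lower. The part of any of these cells in the values of the adhesion genes was not tested.

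Among 13168 genes well above background in all 8 rats, the genes closest to a member over the 8 rats were found by the mean absolute difference between levels centred on each gene's own mean. After an expressed sequence tag without a symbol, Myc was closest to Icam1 (0.21 on the log2 scale). Psmb8 (0.19) and Npy (0.23) were closest to Itgb2, and Arf6 (0.05) and Txnrd1 (0.05) to Itgb1. For Vcam1 these were a transcript without a symbol (0.05) and Ndufa10l1 (0.05). This is a description over rats that share arrays, dyes and groups, with no test.

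**Figure D4:**
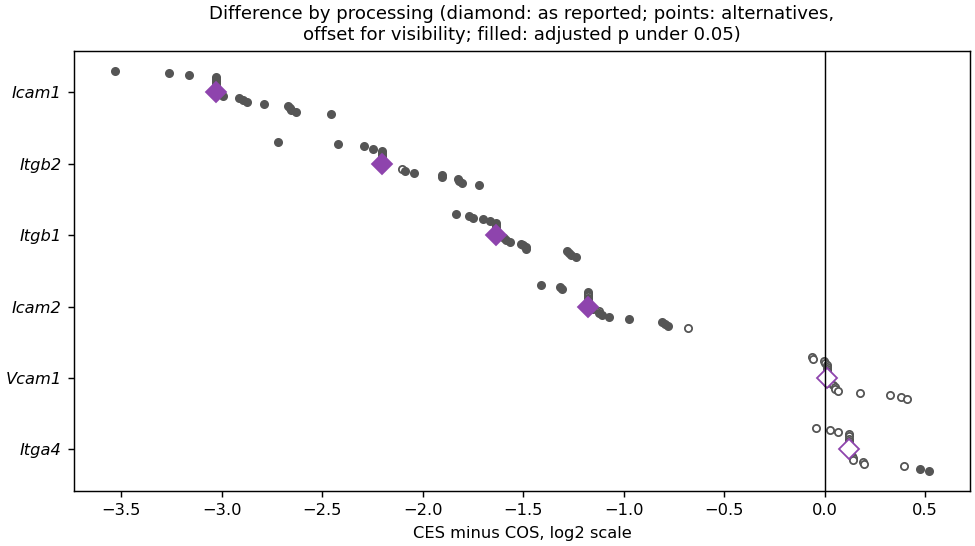
CES minus COS on the log2 scale for the 6 members under each way of processing the data, with the reported value as a diamond and 21 to 24 alternatives as points, filled where the adjusted p was under 0.05 and spread vertically for visibility. By the methods' t-test, drawn at the reported value, no member was called. Icam1, Itgb2, Itgb1 and Icam2 stay left of 0 in all of them, and Vcam1 and Itga4 lie between -0.06 and 0.52.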

How the data were processed

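RNA of 8 rats was measured on 4 Agilent 2-colour arrays, 4 COS and 4 CES rats by the sample titles. Spot intensity and local background intensity were deposited as read by Agilent Feature Extraction 10.7.3.1, before normalization, and the authors' deposited log2 table was found to equal the log2 of the median signal minus background, centred on each channel's median. Following the methods, a spot was valid where its foreground was at least 2 times background in all 8 rats. Spots marked as outliers were left out, and 26294 spots of 20825 genes remained. Mean signal minus background median was divided by the median valid spot of the channel, averaged per gene and log2-transformed. The groups were compared in limma 3.58.1 (R 4.3.3), two-sided, with dye as a term, array as a random block (duplicateCorrelation, statmod 1.5.0) and Benjamini-Hochberg adjustment over all genes at 0.05. The array is nested in the group. In the fit without the filter, values were floored at the lowest valid signal of the channel. The median SE was 0.20 on the log2 scale, and the number of arrays limits the precision.

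Same-numbered rats of COS and CES deviated together (r = 0.33, 0.21, 0.31 and 0.35), but share a dye, and after removal of the dye effect r was -0.06 and -0.04. Members, lists and patterns were chosen with earlier results of these data known. Named singly were all members, the 8 called trafficking genes with the largest difference that were well above background in all rats, the 2 genes closest to each such member, and markers called or not detected. The fit was run on simulated data with 200 of 20825 genes changed. It recovered 57% of log2 changes of 1 and 93% of those of 2, with 10 false calls among 160. The simulated noise was independent between rats, so this run cannot show how the fit behaves with arrays nested in the group. Tables and plots were made in Python 3.11.15 and matplotlib 3.10.9. The methods' t-test means a t-test with unequal variances on the same values.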

Additional observations from a re-analysis of the deposited data

How the results depend on the processing

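Alternatives covered background, scaling, filter, blocks, dye, probes, the deposited log2 table, the methods' t-test and each rat left out; keeping marked spots and the refits without the filter were chosen after seeing the data. Genes called numbered 7152, against 611 with normexp, 0 by the t-test (5909 at an unadjusted p under 0.05, limma 9425) and 1427 (without COS replicate 3) to 8682 (without CES replicate 2) with a rat left out, 3099 without CES replicate 1 and 4132 without COS replicate 1. Higher and lower calls were 3384 and 1783 with channels scaled over spots valid in all rats, and 3213 and 1927 in the deposited log2 table. Of the members, 4 were called in the reported fit, 0 by the t-test (4 at an unadjusted p under 0.05) and 2 to 4 with a rat left out. Of the trafficking genes, 19 were called, against 5 with normexp, 11 with loess, 0 by the t-test (17 unadjusted) and 4 to 23 with a rat left out, 12 without CES replicate 1.

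By the t-test the adjusted p was 0.0771 for Icam1 (difference -3.03), 0.0848 for Icam2 (-1.18), 0.125 for Itgb2 (-2.20), 0.0761 for Itgb1 (-1.63) and 0.131 for Sele (-4.38). With normexp Icam2 was -0.68 and Sele -2.40, both no longer called, and Itga4 -0.045. Itga4 was called higher in the deposited table (0.47) and under scaling over spots valid in all rats (0.52). With a rat left out the difference ran from -3.53 to -2.66 for Icam1, -1.41 to -0.97 for Icam2, -2.72 to -1.90 for Itgb2, -1.84 to -1.50 for Itgb1, -0.062 to 0.067 for Vcam1, 0.03 to 0.19 for Itga4, -5.32 to -3.66 for Sele (-4.00, -4.29, -4.33 and -4.74 without COS replicates 1 to 4, each no longer called; fitted values that depend on the floor, not folds) and -1.29 to -0.57 for Itgal. Vcam1 was -0.0013 without COS replicate 3, -0.057 without CES replicate 3 and -0.062 without CES replicate 4. With the replicate number as a block 7719 genes, 20 trafficking genes and 4 members were called, the members being the same. In the fit without the filter, the block called 6 members, against 5 without it, adding Itgal (-0.92, adjusted p = 0.0493). No member was called in the fit without the filter when any COS rat was left out, with normexp or by the t-test. The cause of these changes was not tested. Dim spots limit Sele, Selp, Itgal and Itga4.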
